A study of Mus musculus with 3 samples.

Results

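The chemokines and their receptors were followed in normal liver, in a liver tumor and in a cell line. The members were all genes that the platform annotation names Ccl, Cxcl, Ccr or Cxcr with a number, together with Cx3cl1, Cx3cr1, Xcl1 and Xcr1. This gave 50 genes out of 19084 on the array, 32 ligands and 18 receptors, read by 56 of 26423 probes. RNA was taken from wild type liver of a female mouse (normal liver), from liver tumor tissue of a female Gnmt-/- mouse (hepatocellular carcinoma, HCC) and from Ymac-1 cells, a line that the study cultured from the liver tumor of a Gnmt-/- mouse and kept in DMEM. HCC is also called the tumor below and Ymac-1 the line. Gnmt encodes glycine N-methyltransferase, which spends methyl groups in the liver. The ages of the mice whose tissue was hybridized, and whether that tumor was the one that gave Ymac-1, were not found in the labels or the methods. The tissues hold many cell types, whereas Ymac-1 is 1 line. For the liver and HCC array data set beside Ymac-1, the study cites an earlier record. Tissue against line may therefore also be earlier against later hybridization, and these cannot be told apart. Each sample was hybridized once. Differences between arrays therefore carry no error and no P value.

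Values are linear, background-subtracted intensities in arbitrary units. A floor of 50 was applied before taking log2, and readings that did not exceed it have no order among themselves. Genes count as higher or lower where the log2 difference reached 1 or -1, and "at least" marks a fold whose smaller reading did not exceed the floor. Gnmt gave readings of 3583 (normal liver), 15.6 (HCC) and 56.1 (Ymac-1). The line comes from a Gnmt-/- mouse, so a reading just past 50 need not mean that a transcript is present. The labelled tissues matched their markers, since 9 of 9 measured hepatocyte markers lay above 50 in normal liver and in HCC. In Ymac-1 4 of these 9 did, and Alb was at 48.3 there. Among the 7687 genes above 50 on all 3 arrays, the median log2 difference was 0.65 between HCC and normal liver and 0.06 between Ymac-1 and HCC, with the first named brighter in both. The HCC array was thus brighter as a whole than that of normal liver and neither the labels nor the methods say how the arrays were scaled against each other.

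Chemokines are small secreted proteins that steer white blood cells along gradients, and they are sorted by the spacing of their first cysteines into CC, CXC, CX3C and C families. They act through receptors of the G protein-coupled family, most of which recognise several ligands. Some ligands are made constantly and place resident cells, and others are switched on in injured or inflamed tissue, often through the transcription factor NF-kB. In liver they come from hepatocytes, Kupffer cells, endothelial cells, bile duct cells and stellate cells, and the receptors are carried mainly by the white blood cells that they attract.

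Promoters are shown for 5 inducible ligands that were higher in Ymac-1 than in normal liver as deposited, and for Cxcl12, a constantly made ligand that was lower. Against HCC the 5 did not share a direction, since Cxcl2 was lower in Ymac-1 and Cxcl10 was within the threshold. The 6 were picked by hand, and 28 of the 36 members with a promoter had no match to the motif below. The promoters are the 250 bases before the start site in RefSeq, build GRCm38.p6, written 5' to 3' on the strand of the gene. Cxcl1 (chr5:90890995-90891244), Cxcl2 (chr5:90903649-90903898), Cxcl3 (chr5:90785851-90786100), Ccl20 (chr1:83116516-83116765) and Cxcl12 (chr6:117168285-117168534) lie on the plus strand and Cxcl10 (chr5:92348890-92349139) on the minus strand. Capitals mark matches to the NF-kB consensus, a motif of 10 bases, on either strand.
Cxcl1: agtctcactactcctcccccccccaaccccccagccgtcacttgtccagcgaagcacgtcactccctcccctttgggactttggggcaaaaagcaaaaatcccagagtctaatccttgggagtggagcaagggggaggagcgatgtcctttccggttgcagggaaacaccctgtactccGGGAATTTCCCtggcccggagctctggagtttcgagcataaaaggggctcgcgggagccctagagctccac
Cxcl2: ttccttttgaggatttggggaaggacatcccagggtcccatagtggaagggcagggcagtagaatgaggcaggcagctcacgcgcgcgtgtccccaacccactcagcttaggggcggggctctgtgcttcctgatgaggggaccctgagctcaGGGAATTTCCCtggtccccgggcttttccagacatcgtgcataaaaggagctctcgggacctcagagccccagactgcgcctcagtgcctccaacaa
Cxcl3: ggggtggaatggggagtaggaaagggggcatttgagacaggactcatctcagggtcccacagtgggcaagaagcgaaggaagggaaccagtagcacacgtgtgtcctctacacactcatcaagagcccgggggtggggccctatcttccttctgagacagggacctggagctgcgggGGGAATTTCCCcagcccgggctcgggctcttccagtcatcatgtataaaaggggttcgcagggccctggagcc
Ccl20: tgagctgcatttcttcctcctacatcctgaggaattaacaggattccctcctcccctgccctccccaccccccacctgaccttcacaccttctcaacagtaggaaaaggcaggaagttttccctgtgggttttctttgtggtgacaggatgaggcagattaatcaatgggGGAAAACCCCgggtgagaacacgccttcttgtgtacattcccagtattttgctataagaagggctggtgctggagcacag
Cxcl10: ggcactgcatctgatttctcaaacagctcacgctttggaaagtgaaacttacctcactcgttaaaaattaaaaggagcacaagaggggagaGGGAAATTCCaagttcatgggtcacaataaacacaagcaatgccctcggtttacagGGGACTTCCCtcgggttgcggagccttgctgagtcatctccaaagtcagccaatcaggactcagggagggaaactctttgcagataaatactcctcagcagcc
Cxcl12: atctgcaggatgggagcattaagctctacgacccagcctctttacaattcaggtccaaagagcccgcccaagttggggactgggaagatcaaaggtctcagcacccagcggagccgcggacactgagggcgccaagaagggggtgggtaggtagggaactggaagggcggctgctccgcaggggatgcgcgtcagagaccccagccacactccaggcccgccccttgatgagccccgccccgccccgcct
In Cxcl1, Cxcl2 and Cxcl3 the capitals form the same run, in which 2 matches overlap, and the run begins 71, 97 and 73 bases before the start site. The match of Ccl20 begins 80 bases before its start site and those of Cxcl10 begin 159 and 103 bases before. Cxcl12 has no match in this window. The consensus was found in 3.90% of all 32851 promoters of the same length and in 8 of 38 promoters of the members. The table held a promoter for 36 of the 50 members. The run GGGAATTTCC, searched on both strands after it had been seen in these promoters, was found in 28 of the 32851 (0.0852%), among them those of Cxcl1, Cxcl2, Cxcl3 and Ccr3. A match is a description of letters and not a measured binding site.

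As with all genes, more members lay above 50 in HCC than in the other samples. Of the 50 members, normal liver had 18 above 50, HCC had 26 and Ymac-1 had 18 (36%, 52% and 36%, where all genes gave 46.4%, 56.0% and 50.9%). After quantile normalization the members numbered 20, 24 and 18, where all genes gave 51.5%, 52.0% and 51.3%. The readings below are as deposited. Of the 50 members, 9 were above 50 on all 3 arrays, namely the ligands Ccl25, Cx3cl1, Cxcl1, Cxcl10, Cxcl12, Cxcl14 and Cxcl16 and the receptors Cxcr1 and Cxcr5. Ccl2, Ccl9, Cxcl2 and Cxcl5 were above 50 in HCC and Ymac-1 but not in normal liver. Ccl20, Ccl7, Ccr1, Cxcl17 and Cxcl3 were above 50 in Ymac-1 and on no other array. Ccl12, Ccl3, Ccr6, Cx3cr1 and Cxcr4 were so in HCC and on no other array, and 8 members were so in both tissues and not in Ymac-1. On no array did the ligands Ccl1, Ccl17, Ccl22, Ccl24, Ccl26, Ccl28, Cxcl11 and Cxcl15 or the receptors Ccr10, Ccr1l1, Ccr3, Ccr4, Ccr7, Ccr8, Ccr9, Cxcr2, Cxcr3 and Xcr1 pass 50. Just past the floor were Xcl1, at 50.5 in normal liver, and Ccr1, at 56.7 in Ymac-1.

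**Figure D1:**
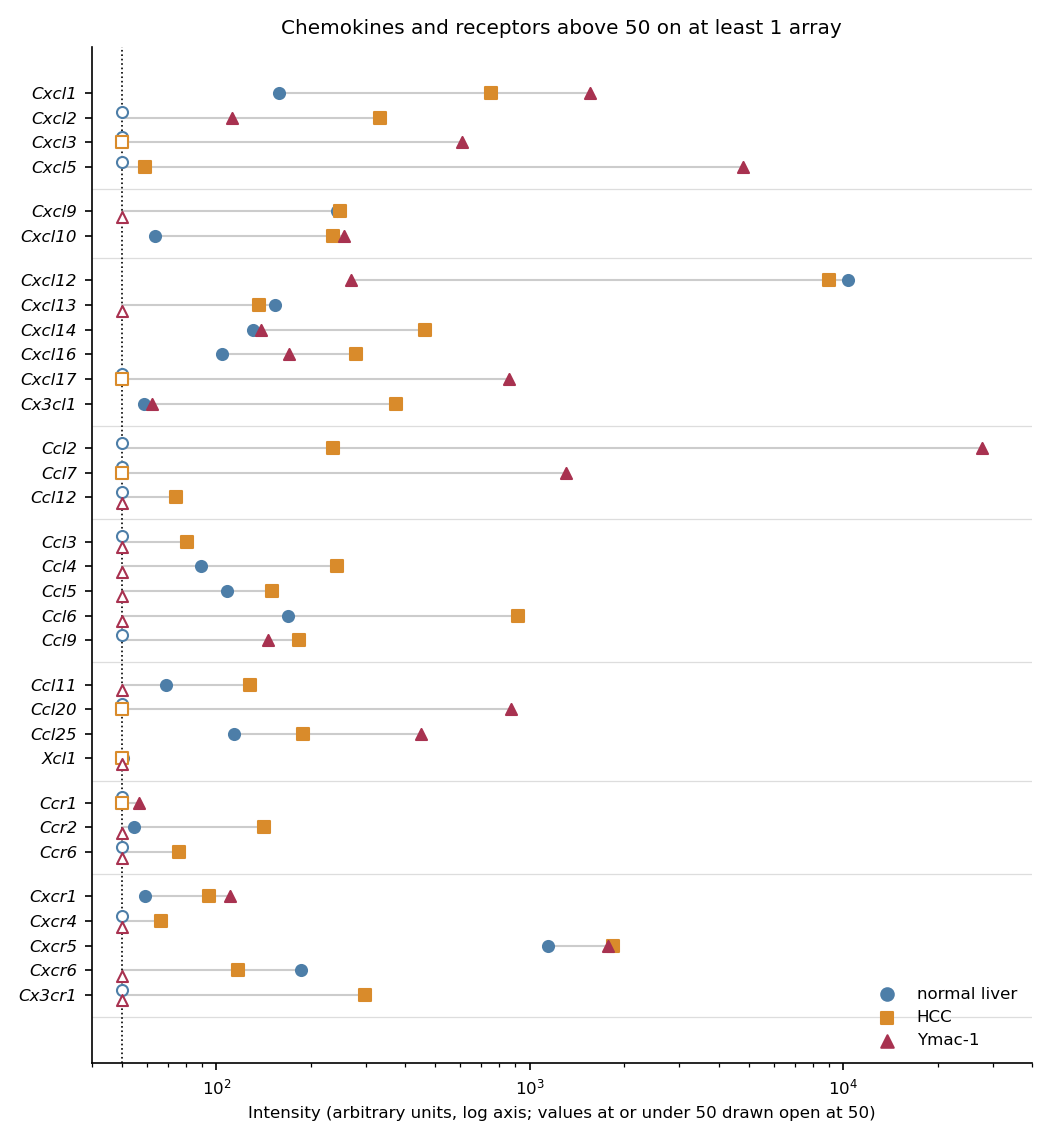
Intensity of the 32 members above 50 on at least 1 array, grouped by role, on a log axis in arbitrary units, with 1 array per condition. Filled symbols are readings above 50, open symbols are readings at or under it and are drawn at 50 with a small vertical shift, and grey lines join the readings of a gene. Ccl2 and Cxcl5 reach 27797 and 4779 in Ymac-1, and Cxcl12 is at 268 there against 10356 in normal liver.

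HCC differed from normal liver in 1 direction as deposited. Of the 50 members 12 were higher in HCC (24%, against 15.9% of all genes) and 0 were lower (0.749% of all genes). These were the ligands Ccl2, Ccl4, Ccl6, Ccl9, Cx3cl1, Cxcl1, Cxcl10, Cxcl14, Cxcl16 and Cxcl2 and the receptors Ccr2 and Cx3cr1. The split depended on the scaling of the arrays, with 8 higher and 2 lower after quantile normalization, 6 and 4 after median centring (each array set to 1 median) and 9 and 2 after upper quartile scaling. The shares of all genes moved as well. They were 4.79% higher and 3.28% lower after quantile normalization, 2.85% and 11.6% after median centring, and 4.89% and 3.66% after upper quartile scaling. Ccl2, Ccl6, Ccl9, Cx3cl1, Cx3cr1 and Cxcl2 were past the threshold under all 4 scalings. The median log2 difference was 0 over the members and 0.02 over all genes.

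Ymac-1 differed from HCC in both directions. Of the 50 members 8 were higher in Ymac-1 (16%, against 14.7% of all genes) and 13 were lower (26%, against 15.9%). The higher genes were all ligands, namely Ccl2, Ccl20, Ccl25, Ccl7, Cxcl1, Cxcl17, Cxcl3 and Cxcl5, and each was past the threshold under all 4 scalings. Of the 13 lower genes, Ccl4, Ccl5, Ccl6, Cx3cl1, Cx3cr1, Cxcl12, Cxcl14, Cxcl2 and Cxcl9 were so under all 4 scalings, and Ccl11, Ccr2, Cxcl13 and Cxcr6 were not. The share of higher members was thus near that of all genes. Among 8778 genes above 50 on both arrays, Ccl2 had the largest difference in favor of Ymac-1 and Cxcl5 the next. Ccl2 kept the first place after quantile normalization, median centring and upper quartile scaling, while Cxcl5 was then no longer above 50 in HCC and had no rank. Against normal liver, 11 members were higher in Ymac-1 (22%, against 23.3% of all genes) and 6 were lower (12%, against 9.41%).

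**Figure D2:**
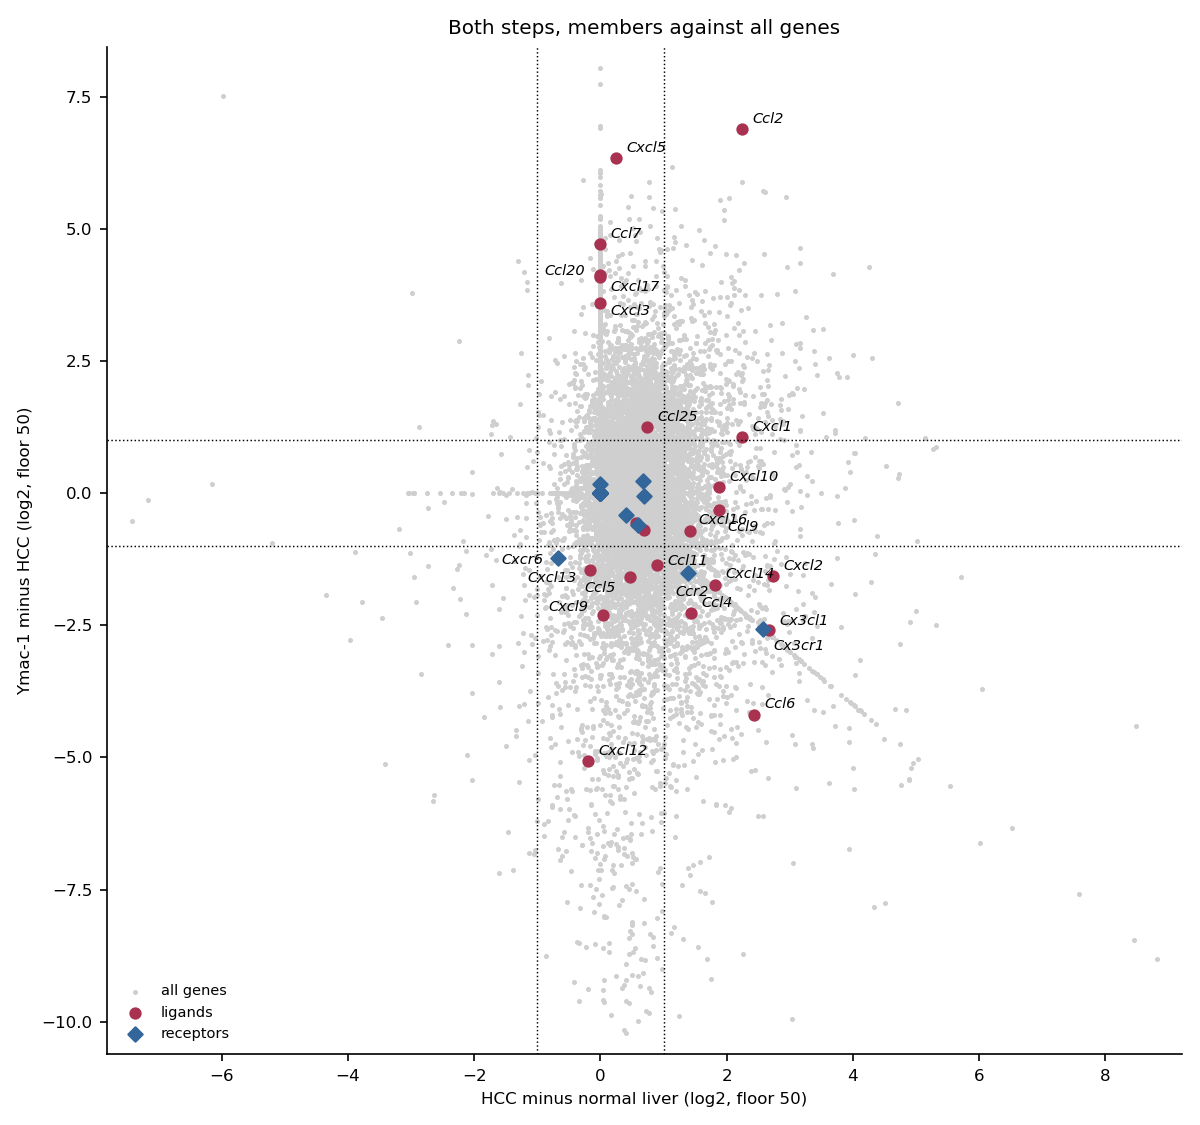
Log2 difference of HCC minus normal liver (x axis) and of Ymac-1 minus HCC (y axis) for all 19084 genes (grey), the 32 ligands (circles) and the 18 receptors (diamonds), after a floor of 50. Dotted lines mark a log2 difference of 1, and members past it on either axis are named. Ccl2 and Cxcl5 lie at 6.88 and 6.33 on the y axis, Cxcl12 at -5.07, and points on the diagonal line are genes at the floor in both normal liver and Ymac-1.

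The neutrophil attractants of the CXC family, which act through Cxcr2, were divided by array. Cxcl1, made by many cell types under inflammatory stimuli, gave readings of 158 (normal liver), 751 (HCC) and 1559.7 (Ymac-1). It was thus highest in Ymac-1, 4.75-fold above liver in the tumor and a further 2.08-fold above the tumor in the line. Centring each array on its median took its first step to 0.97 on the log2 scale, just under the threshold. Cxcl5, an attractant that epithelial cells release, read 8.56, 59.2 and 4779 in the same order and was 80.7-fold higher in the line than in the tumor. Its reading in HCC was just past the floor, so the size of this fold is uncertain. Cxcl3 read -2.38, 13.0 and 607 and was at least 12.1-fold higher in Ymac-1 than in either tissue. Cxcl2, an early product of macrophages and injured tissue, had another order. Its readings of 10.6 (normal liver), 332 (HCC) and 112 (Ymac-1) put it at least 6.64-fold higher in the tumor than in liver and 2.97-fold lower in the line than in the tumor. Cxcl15, which mouse lung makes, was under 50 on all arrays. Of these 5 ligands 3 were higher in the line than in the tumor and 1 was lower, where all genes gave 14.7% and 15.9%.

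The CC ligands of Ccr2, the receptor that brings monocytes out of the marrow, held the largest difference of the family. Ccl2 gave readings of 25.7 (normal liver), 236 (HCC) and 27797 (Ymac-1). It was at least 4.71-fold higher in the tumor than in liver, by 1.59 on the log2 scale beyond the median difference of those arrays, and 118-fold higher in the line than in the tumor. Ccl7, which shares this receptor, read 9.63, 37.9 and 1307 and was at least 26.1-fold higher in Ymac-1 than in either tissue. Ccl12, a mouse ligand of the same receptor, was measurable only in HCC, at 74.2, and not in Ymac-1, at 5.10. The 3 ligands therefore did not share 1 order, and none of them was above 50 in normal liver.

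Other ligands above 50 in Ymac-1 act on more select targets. Ccl20, which attracts Ccr6-bearing lymphocytes and dendritic cells to epithelia, gave readings of 1.00 (normal liver), 11.4 (HCC) and 869 (Ymac-1), at least 17.4-fold higher than in either tissue. Cxcl17, a chemokine of mucosal surfaces, read 8.39, 9.03 and 855, at least 17.1-fold higher. Ccl25, which guides T cells in thymus and gut, gave readings of 114 (normal liver), 189 (HCC) and 451 (Ymac-1), a 2.38-fold step from HCC to the line. Its second probe read under 50 on all arrays, and with the mean of both probes its step was 0.63 on the log2 scale and under the threshold.

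The ligands of Cxcr3, induced by interferon to draw T cells and NK cells, did not move together. Cxcl9 gave readings of 242 (normal liver), 249 (HCC) and 6.57 (Ymac-1), which put the line at least 4.97-fold under the tumor. Its second probe read 205, 208 and 51.4, so both probes put both tissues close to each other and above the line. After median centring the log2 difference of HCC minus normal liver for Cxcl9 was -1.24, against 0.04 as deposited. Cxcl10 read 63.6, 235 and 255, with Ymac-1 close to HCC. It was 3.70-fold higher in the tumor than in liver as deposited, and under the threshold after quantile normalization (0.98) and median centring (0.60). Cxcl11 passed 50 on no array.

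The other inflammatory CC ligands, Ccl3, Ccl4, Ccl5, Ccl6 and Ccl9, made largely by macrophages and lymphocytes, were all above 50 in HCC, and 1 of the 5 was so in Ymac-1. Ccl6, a mouse ligand made by myeloid cells, gave readings of 169 (normal liver), 914 (HCC) and 39.8 (Ymac-1). It was 5.40-fold higher in the tumor than in liver and at least 18.3-fold lower in the line than in the tumor. Ccl4 read 89.2, 242 and 22.2 and had the same order, 2.72-fold higher in HCC as deposited and under the threshold with the other 3 scalings. Ccl5, an attractant of T cells, gave readings of 108 (normal liver), 150.4 (HCC) and 4.64 (Ymac-1), and both tissues differed by less than the threshold. Ccl3 passed 50 in HCC alone, at 80.7. Ccl9, a further mouse ligand, was the exception, with readings of 19.6, 184 and 146. It was at least 3.67-fold higher in the tumor than in liver, and the log2 difference of Ymac-1 minus HCC was -0.33, a sign that turned after quantile normalization and median centring.

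Cxcl12, the constantly made ligand that holds Cxcr4-bearing cells in place, had the largest difference of any member in favor of the tissues. It gave readings of 10356 (normal liver), 8990.0 (HCC) and 268 (Ymac-1), and was 33.5-fold lower in the line than in HCC. The tissues were close as deposited, with a log2 difference of -0.20, which became -1.49 after median centring, -1.01 after upper quartile scaling and -0.58 after quantile normalization. Cxcl13, which leads B cells into follicles, read 154, 137 and 0.151 and was at least 2.74-fold lower in the line than in the tumor. After median centring that step was -0.87 and under the threshold. For Cxcl13 the log2 difference of HCC minus normal liver was -0.17 as deposited. It was -1.13 after quantile normalization, -1.45 after median centring and -0.97 after upper quartile scaling.

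A further set of ligands was highest in HCC as deposited. Cx3cl1, the membrane-bound chemokine also called fractalkine, gave readings of 58.6 (normal liver), 373 (HCC) and 62.4 (Ymac-1), 6.37-fold higher in the tumor than in liver and 5.98-fold higher in HCC than in the line. Cxcl14 read 131, 463 and 139, with normal liver and Ymac-1 close to each other. Its second probe read 5.97, 301 and 6.41, so that both probes put HCC highest while only 1 of them was above 50 elsewhere. Cxcl14 was under the threshold for HCC minus normal liver after median centring (0.54). Cxcl16, the other membrane-bound ligand, read 104, 278 and 170.0, and its log2 difference of HCC minus normal liver was 1.42 as deposited and 0.14 to 0.62 with the other scalings. Ccl11, which attracts eosinophils, read 68.9, 128 and 15.6, with HCC at least 2.55-fold above Ymac-1 as deposited and that step under the threshold after quantile normalization (-0.91) and median centring (-0.76). The log2 difference of HCC minus normal liver for Ccl11 was 0.89 as deposited and 0.08 after upper quartile scaling. It was -0.11 after quantile normalization and -0.39 after median centring.

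Fewer receptors than ligands were measurable, with 4, 7 and 3 of 18 receptors above 50 in normal liver, HCC and Ymac-1 against 14, 19 and 15 of 32 ligands. Cx3cr1, the fractalkine receptor of monocytes and macrophages, gave readings of 12.5 (normal liver), 297 (HCC) and 10.5 (Ymac-1), and HCC was at least 5.94-fold above both others. Ccr2 read 54.4, 142 and 6.42, and its second probe passed 50 on no array, at 48.4 in HCC. Its 2.61-fold step from liver to HCC was not past the threshold with the other 3 scalings or with the mean of its probes. Cxcr6, the Cxcl16 receptor of liver T cells and NKT cells, gave readings of 187 (normal liver), 117 (HCC) and 4.95 (Ymac-1). Normal liver was highest, with a log2 difference of HCC minus normal liver of -0.67 as deposited and of -1.48, -1.69 and -1.96 with the other scalings. Ccr6, at 75.9, and Cxcr4, at 66.5, passed 50 in HCC alone. Of the 18 receptors 0 were higher in the line than in the tumor (14.7% of all genes) and 3 were lower, a share close to the 15.9% of all genes.

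Cxcr5 and Cxcr1 stood out among the receptors in being above 50 on all arrays. Cxcr5, the Cxcl13 receptor of B cells, gave readings of 1140.1 (normal liver), 1842 (HCC) and 1781 (Ymac-1), with HCC and Ymac-1 close to each other. Of 5 measured B cell markers 1, 2 and 1 were above 50 on these arrays. Cd79b read 64.1, 218 and 10.9 and Cd79a 33.4, 76.4 and 53.1, while Ms4a1, Pax5 and Blk were under 50 throughout. Cxcr5 thus had a high reading in a cell line where B cell markers were at or near the floor. It is read by 1 probe, and what that probe binds was not tested. Cxcr1 read 59.3, 95.0 and 111.

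Ligands and their receptors were set side by side on each array. Ymac-1 carried the highest readings of Ccl2 and Ccl7, and Ccr2 was at 6.42 there. It carried the highest readings of Cxcl1, Cxcl3 and Cxcl5, and Cxcr2 was under 50, though Cxcr1 was at 111. Ccl20 was at 869 and its receptor Ccr6 at -0.151. Ccl25 was at 451 and its receptor Ccr9 under 50. In the line none of the receptors Ccr2, Cxcr2, Ccr6 and Ccr9 was above 50 while a ligand of each was called higher than in HCC. Most receptors were under 50 there whatever their ligands. Only 3 of all 18 were above it, namely Ccr1, Cxcr1 and Cxcr5, against 50.9% of all genes. In HCC the pairs Cx3cl1 and Cx3cr1, Ccl2 and Ccr2, Cxcl16 and Cxcr6, Cxcl13 and Cxcr5, and Cxcl12 and Cxcr4 were above 50 on both sides, with Cxcr4 near the floor at 66.5. Cxcl16 with Cxcr6 and Cxcl13 with Cxcr5 were so in normal liver too. In bulk RNA, fewer cells of a type and less RNA per cell cannot be told apart.

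Members that lie next to each other in the genome did not share 1 pattern. The groups are small, and of all genes 14.7% were higher and 15.9% lower in the line than in the tumor. In gene order on chromosome 5, Cxcl5, Cxcl3, Cxcl15, Cxcl1 and Cxcl2 form a group in which 3 of 5 were higher in the line than in the tumor, 1 was lower and Cxcl15 was under 50 throughout. On chromosome 11, Ccl2 and Ccl7 are followed by Ccl11, Ccl12 and Ccl1. The first pair was higher in Ymac-1 by 6.88 and by at least 4.71 on the log2 scale, Ccl11 was lower, and Ccl12 and Ccl1 were under 50 in Ymac-1. The second group there, Ccl5, Ccl9, Ccl6, Ccl3 and Ccl4, held no member higher in Ymac-1 and 3 of 5 that were lower. Of the 7 receptors that lie together on chromosome 9, Cxcr6 and Ccr2 read lower in the line than in the tumor as deposited and the others were within the threshold. The lower calls of Ccl11, Cxcr6 and Ccr2 did not hold under all 4 scalings.

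**Figure D3:**
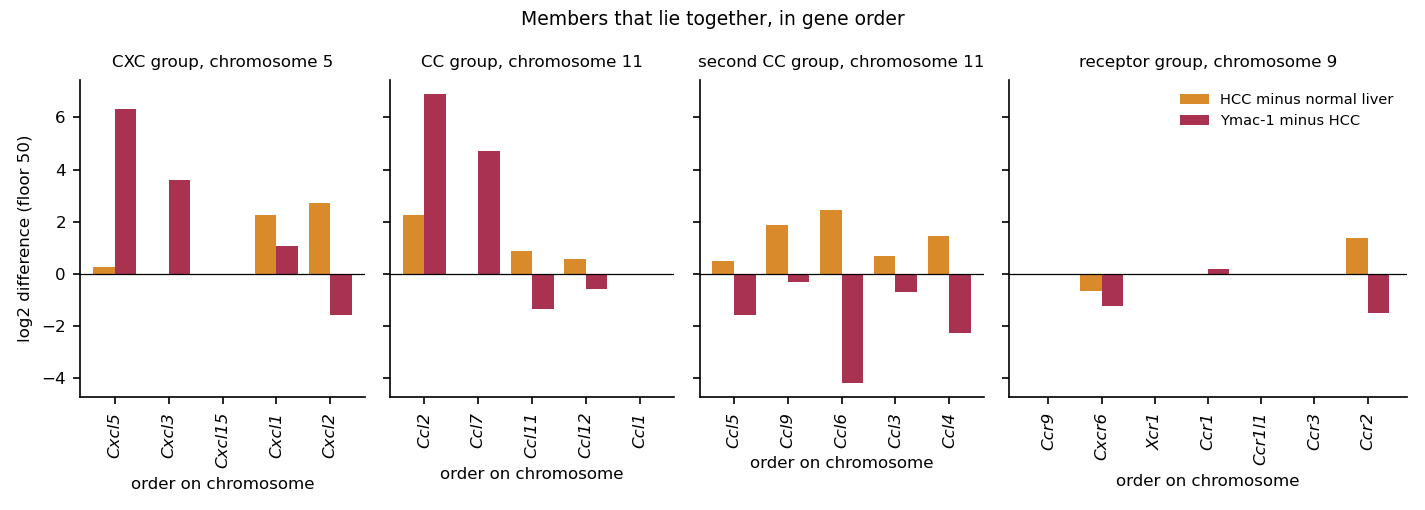
Log2 differences of HCC minus normal liver (orange) and Ymac-1 minus HCC (red) after a floor of 50, for 4 groups of members that lie together, in the order of the genes and not to genomic scale. A missing bar is a difference of 0, where both readings were at or under 50. Cxcl5 and Ccl2 stand at 6.33 and 6.88 at the head of their groups, and no bar of Ymac-1 minus HCC is above 0 in the second group of chromosome 11.

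The promoters printed above can be read beside these values. Of the 8 members with an NF-kB consensus match, 6 were higher in Ymac-1 than in normal liver, namely Ccl20, Ccl9, Cxcl1, Cxcl10, Cxcl2 and Cxcl3, while Ccr3 and Ccr6 were not. Of the 28 members whose promoter held no match, 1 was, Ccl25. Of all genes 23.3% were higher in that comparison. In Ymac-1 minus HCC, 3 of the 8 and 1 of the 28 were higher (14.7% of all genes), and in HCC minus normal liver 4 of the 8 and 5 of the 28 (15.9%). The motif was chosen with these values known, so the counts are a description. Of all 50 members, 18 passed 50 on no array and could not be called higher whatever their promoter. Of the 18 receptors 0 were higher in Ymac-1 than in normal liver. The members with and without a match were not compared at like readings or within the ligands. Ccl2, Ccl7, Cxcl17 and Cxcl5, which are 4 of the 11 members higher in Ymac-1 than in normal liver, were not searched here.

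White blood cell markers were read beside the members that were highest in HCC. Of all genes, 15.9% were higher in the tumor than in liver as deposited. That share was 4.79% after quantile normalization, 2.85% after median centring and 4.89% after upper quartile scaling. Lower in the line than in the tumor were 15.9% of all genes as deposited and 10.9% to 13.8% with the other scalings. As deposited, all 6 measured common leukocyte markers were higher in the tumor than in normal liver, against 2 after quantile normalization, 0 after median centring and 1 after upper quartile scaling. All 6 were lower in the line than in the tumor under each of the 4 scalings, and their summed intensity above 50 was 3058 for normal liver, 9947 for HCC and 237 for Ymac-1. In Ymac-1 Ptprc was at 51.1 and Coro1a at 186, and Laptm5, Cd52, Cd53 and Rac2 were under 50. Of 16 macrophage and Kupffer cell markers, 9 were higher and 2 lower in the tumor than in liver and 13 were lower in the line than in the tumor, with sums of 7518, 23266 and 3351. The 9 became 4 after quantile normalization and after median centring and 5 after upper quartile scaling. Csf1r, Cd14 and Cd68 were still above 50 in the line, at 546, 2558 and 247. Of 9 neutrophil markers, 6 were higher in the tumor than in liver and the same number lower in the line than in the tumor, with sums of 309, 4410.1 and 77.7. With each of the other scalings 4 were higher in the tumor than in liver and 5 lower in the line. S100a9 went from 149.8 in normal liver to 2431 in the tumor, and S100a8, Elane and Ngp were under 50 throughout.
Of 15 T and NK cell markers 3, 3 and 1 were above 50, with sums of 260, 412 and 52.3, and Cd4, Cd8a, Nkg7 and Ncr1 were under 50 on all arrays. Of 6 dendritic cell markers 1, 2 and 1 were above 50, with sums of 142, 434 and 179. Endothelial markers numbered 8, 9 and 1 above 50 of 9, with sums of 6312, 10702 and 58.5, and stellate cell and fibroblast markers 5, 7 and 1 of 9, with sums of 15664, 32087 and 90.7. Dcn made up most of the last 3 sums, at 13481, 29179.7 and 90.7, while Reln read 1631 and 1541 and Lrat 346 and 367 in normal liver and HCC. Col1a1 and Col3a1 were under 50 on all arrays. Of 4 bile duct markers 2, 4 and 3 were above 50, with sums of 129.9, 684 and 14649. Krt7 and Krt19 made up most of the sum in Ymac-1, at 6382 and 7891, whereas Epcam was at 382 in HCC and 0.541 in Ymac-1. The part of these cells in the readings of the chemokines was not tested.

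Other genes of the pathway were counted from lists, beside 15.9% of all genes higher in the tumor than in normal liver, and 14.7% higher and 15.9% lower in the line than in the tumor. These shares are as deposited, and the first of them is given for the other scalings above. Of 10 atypical receptors, chemokine-like genes and their receptors, 3 were higher in the tumor than in liver and 4 lower in the line than in the tumor. Pf4, the platelet chemokine that carries no Cxcl name here, gave readings of 71.5 (normal liver), 2116 (HCC) and 8.05 (Ymac-1). Ccrl2, which binds chemerin, read 144, 944 and 90.6, and Rarres2, which encodes chemerin, was at 25698 in HCC and 46.4 in Ymac-1. Ackr2, a scavenger of inflammatory CC chemokines, read 252, 671 and 22.2. Of 16 genes of receptor signalling, 6 were higher in the tumor than in liver, and 3 were higher, close to the share of all genes, and 7 lower in the line than in the tumor. The 6 became 1, Rgs1, with each of the other scalings, and the 7 became 4 after quantile normalization. Grk5 and Rac1, a kinase of activated receptors and a GTPase of cell movement, were 4.03-fold and 2.57-fold higher in the line than in the tumor. Rac2, the form of blood cells, and Rgs1, which damps receptor signals in lymphocytes, were at least 12.0-fold and 10.3-fold lower.
Of 10 genes that trim, shed or present chemokines, 2 were higher and 1 lower in the tumor than in normal liver. The lower gene was Dpp4, the protease that inactivates several chemokines, with readings of 403, 195 and 9.67. Adam10, a sheddase of Cx3cl1 and Cxcl16, read 333, 626 and 1658, and Sdc4, a heparan sulfate carrier, 9815, 21593 and 3535. Of 13 inducers of chemokines and their feedback genes, 9 were higher in the tumor than in liver and 0 lower as deposited, with 5 higher after quantile normalization and upper quartile scaling and 1, Tnfaip3, after median centring. In this list 2 were higher and 4 lower in the line than in the tumor. The 2 higher genes, Tnfaip3 and Nfkb2, read 151 and 128 in normal liver, 936 and 538 in HCC, and 2711 and 1618 in Ymac-1. Relb and Rela were within the threshold, with log2 differences of Ymac-1 minus HCC of 0.09 and 0.30. Nfkbia, the inhibitor of NF-kB and among the 4 lower genes, read 6858, 8629.6 and 2178. The activity of NF-kB was not measured. Il1b, which induces many of these ligands, read 166, 355 and 29.7, and Tnf was under 50 on all arrays. Irf7, an interferon-induced factor, was 25.1-fold lower in the line than in the tumor.

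**Figure D4:**
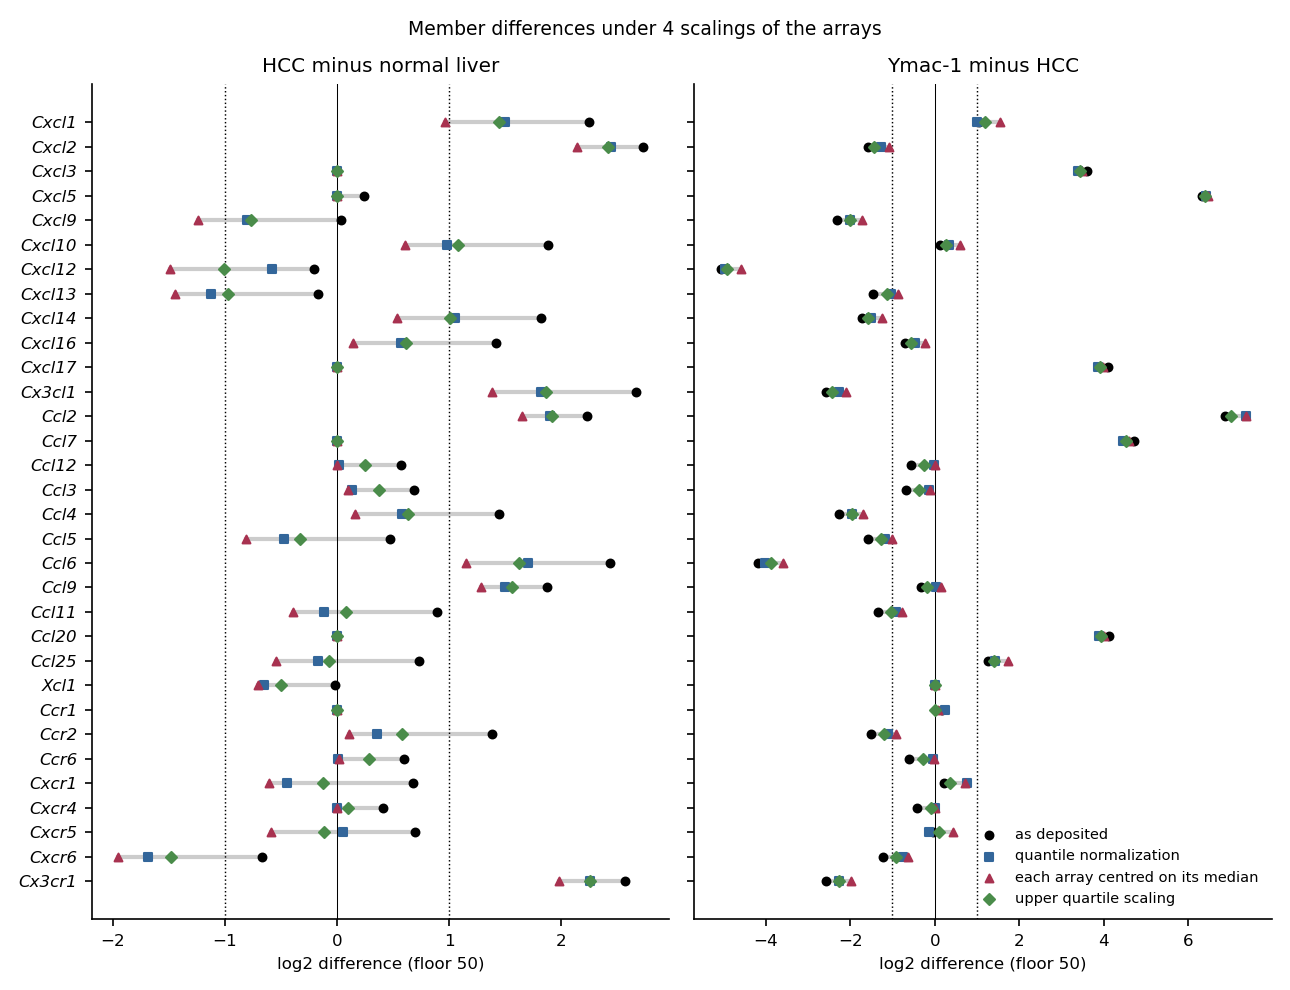
Log2 differences of the 32 members above 50 on at least 1 array, for HCC minus normal liver (left) and Ymac-1 minus HCC (right), under 4 scalings of the arrays, after a floor of 50. Grey bars span the 4 values and dotted lines mark 1 and -1. The left side spreads widely and 6 members stay past 1 throughout, while on the right 8 members stay above 1 and 9 below -1.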

How the data were processed

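By the study's methods, 1 µg of total RNA per sample was amplified to Cy5-labelled antisense RNA and hybridized to Mouse Whole Genome OneArrays. There is 1 array for each of normal liver, HCC and Ymac-1, and the tissue arrays may come from the earlier data that the study cites. The deposited values are linear intensity values for 26423 probes per array, background-subtracted by the authors and partly at or below 0 (5.59%, 2.68% and 5.11%). No source used here names the scanner or the scaling between arrays, and the number of arrays limits the precision.

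The platform annotation named 21876 probes, and all 50 members were found by Entrez ID in the gene table of GRCm38.p6 under the same symbol. Each gene was represented by its brightest probe (mean log2 over the arrays), which mattered for 6 members with several probes. Scaling as deposited was kept, readings under 50 were set to 50, and the log2 threshold was 1, the ratio of the study's methods. Their P value needs replicates and was not used. Members above 50 on at least 1 array were named with their readings, the others by name alone, and genes of the lists where they were at the ends of a list or singled out. The members, the lists and the roles were chosen with earlier results of these data known. A planned reading of cysteine patterns from protein sequences was not done. The calling step was tested on simulated data. The alternatives were 3 scalings, floors of 25 and 100, a threshold of 1.5, the mean of probes and a filter on dim genes. The scalings of the marker and pathway lists were added after the data had been seen. Scripts ran under Python 3.11.15 (pandas 2.3.3, numpy 2.4.6, matplotlib 3.10.9).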

Additional observations from a re-analysis of the deposited data

How the results depend on the processing

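No paired analysis was possible because each condition has 1 array and the labels give no replicate numbers. Of 87 alternative values of the counts and medians, 73 stayed within 1.5 times the count, or within 0.1 of the median on the log2 scale. For HCC minus normal liver the 0 lower members became 2 after quantile normalization, 2 after upper quartile scaling and 4 after median centring, where the higher members went from 12 to 6. The shares of all genes moved with these scalings too. For Ymac-1 minus HCC the 13 lower members became 8 with a floor of 100. For Ymac-1 minus normal liver the 6 lower members became 10 with a floor of 25 and 2 with a floor of 100, and the members above the floor in normal liver went from 18 to 11 with a floor of 100. With genes above the floor on both arrays only, the medians were 0.89 over 17 members for HCC minus normal liver and 0.71 over 9 for Ymac-1 minus normal liver. The counts were then 4 higher and 4 lower for Ymac-1 minus HCC and 3 higher and 1 lower for Ymac-1 minus normal liver, since this filter leaves 13 and 9 members. Of 576 single differences of the named members, 510 kept their side of the threshold, 38 were no longer past it, 28 came past it and 0 called differences changed sign. Where the scaling moved a count, the cause was not tested. Members near the floor, such as Ccr1, Ccr6, Cxcr4 and Xcl1, have readings too low to order.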
